A study of Mus musculus with 2 samples.

Results

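The genes described here are 41 genes of DNA replication, those that build and fire replication origins and those that copy DNA at the fork, out of 21853 protein-coding genes of the mouse. They were chosen by name, as a list of genes with known roles in replication, with earlier results of these data known. All 41 were found in the annotation. ATAC-seq, an assay that uses a transposase to cut and tag open DNA, was run on 2 libraries of 1 group, haematopoietic stem cells taken from adult C57BL/6J mice 5 to 6 weeks old, with no treatment, transgene or mutation named. Both libraries carry 1 donor identifier, the sex was not recorded, the sorting markers are not named, and a starting amount of 50000 cells is given for replicate 2 and none for replicate 1, so it is unknown whether the 2 came from separate animals and their spread may be technical. The data are peak lists on the mm10 build and hold no reads, so the read depth is unknown. With no second group, nothing was tested between conditions. Values of the replication genes are set beside the same values for all genes.

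Replication begins at origins, where the origin recognition complex, Cdc6 and Cdt1 load the ring-shaped MCM helicase onto DNA before S phase. In S phase the helicase is activated by Cdc45 and the GINS complex, and polymerases, the sliding clamp, its loader, the single-strand binding protein RPA and enzymes that join the lagging strand and supply nucleotides complete the copy. Most haematopoietic stem cells of an adult are quiescent and enter this cycle rarely, and many of these genes are known targets of the E2F transcription factors, which are held by the retinoblastoma protein family outside S phase. Open chromatin at a promoter is not a measure of the gene's transcription.

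Short stretches around the E2F words at the summits of these promoters are shown for 1 reason. Of the words searched, E2F had the highest ratio of its share in the replication genes to its share in all promoters. The words were TTTCCCGC, TTTCGCGC, TTTGCCGC and TTTGGCGC, read on either strand in the window from 100 bp before to 100 bp after the summit of the highest promoter peak. Each stretch is 30 bases from the GRCm38.p6 (mm10) sequence of RefSeq, written 5′ to 3′ on the gene's own strand, with the words in capitals. A run of capitals longer than 1 word is made of words on both strands that overlap. The words of Mcm5, Mcm6 and Pola1 lay upstream of the start, outside annotated exons, and those of the others lay in or touched an exon of an annotated transcript. Mcm4, Gmnn and Pole also held a word and are named only.
Mcm2, chr6:88898678-88898707, minus strand: tggtctagtTTTCGCGCGAAAaccggtggc
Mcm5, chr8:75109550-75109579, plus strand: ggaggctggttTTTCCCGCgaaagtcggct
Mcm6 nearer the start, chr1:128359734-128359763, minus strand: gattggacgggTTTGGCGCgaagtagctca
Mcm6 farther from the start, chr1:128359795-128359824, minus strand: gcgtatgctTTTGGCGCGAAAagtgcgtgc
Mcm7 nearer the start, chr5:138171849-138171878, minus strand: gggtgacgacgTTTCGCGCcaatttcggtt
Mcm7 farther from the start, chr5:138172030-138172059, minus strand: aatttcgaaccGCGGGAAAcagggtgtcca
Orc1, chr4:108579416-108579445, plus strand: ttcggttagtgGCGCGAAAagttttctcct
Orc3, chr4:34614965-34614994, minus strand: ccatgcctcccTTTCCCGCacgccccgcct
Gins3, chr8:95633507-95633536, plus strand: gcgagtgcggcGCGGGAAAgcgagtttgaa
Rfc3, chr5:151651195-151651224, minus strand: gcacgcTTTCGCGCtcGCGGGAAAactcta
Pola1, chrX:93632275-93632304, minus strand: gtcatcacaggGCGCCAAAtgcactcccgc
Lig1, chr7:13278841-13278870, plus strand: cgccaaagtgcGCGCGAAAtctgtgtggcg

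All 41 replication genes had a promoter peak, meaning a peak whose summit lay within 1 kb of the start site of a protein-coding transcript. They had it in the conservative list of both libraries (51.9% of all protein-coding genes), in the list of replicate 1 thresholded by the irreproducible discovery rate (IDR, a measure of how well peaks repeat; 52.2%) and in that of replicate 2 (45.8%). They also had it in the longer pseudoreplicated lists of replicate 1 (63.5%) and replicate 2 (62.0%). For the 41 genes these gave the same signal and region width as the IDR list of the same replicate. They therefore add no separate measurement. All 5 lists together gave a promoter peak to 44.2% of genes, and to every one of the 41. The 3 other lists made from both libraries also held all 41. Of all genes, 56.4%, 65.1% and 66.3% had a promoter peak in the IDR, replicated and pseudoreplicated lists of both libraries. The 41 had the same summit and signal there as in the conservative list, so these lists add no separate measurement.

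The height of these peaks varied widely within the group. The signal of each peak is the authors' value, with no stated control or scaling, and it was used to rank peaks within a list only. In the conservative list the median signal of the 41 genes was 11.5, beside 9.78 for all 11338 genes with a promoter peak, and the range ran from 5.85 at Mcm2 to 16.6 at Mcm10. The medians were 12.2 beside 10.8 in replicate 1 and 8.88 beside 8.0 in replicate 2. As a percentile among genes with a promoter peak in the same list, the median replication gene stood at 70.9 in the conservative list, 67.2 in replicate 1 and 63.6 in replicate 2. In these 3 lists, 32, 33 and 25 of the 41 genes were above percentile 50, and 18, 17 and 17 were above percentile 75. At the low end, 4, 4 and 6 genes were below percentile 25. Mcm2, Mcm7, Pola2 and Rrm2 were the genes below percentile 25 in the conservative list.

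**Figure D1:**
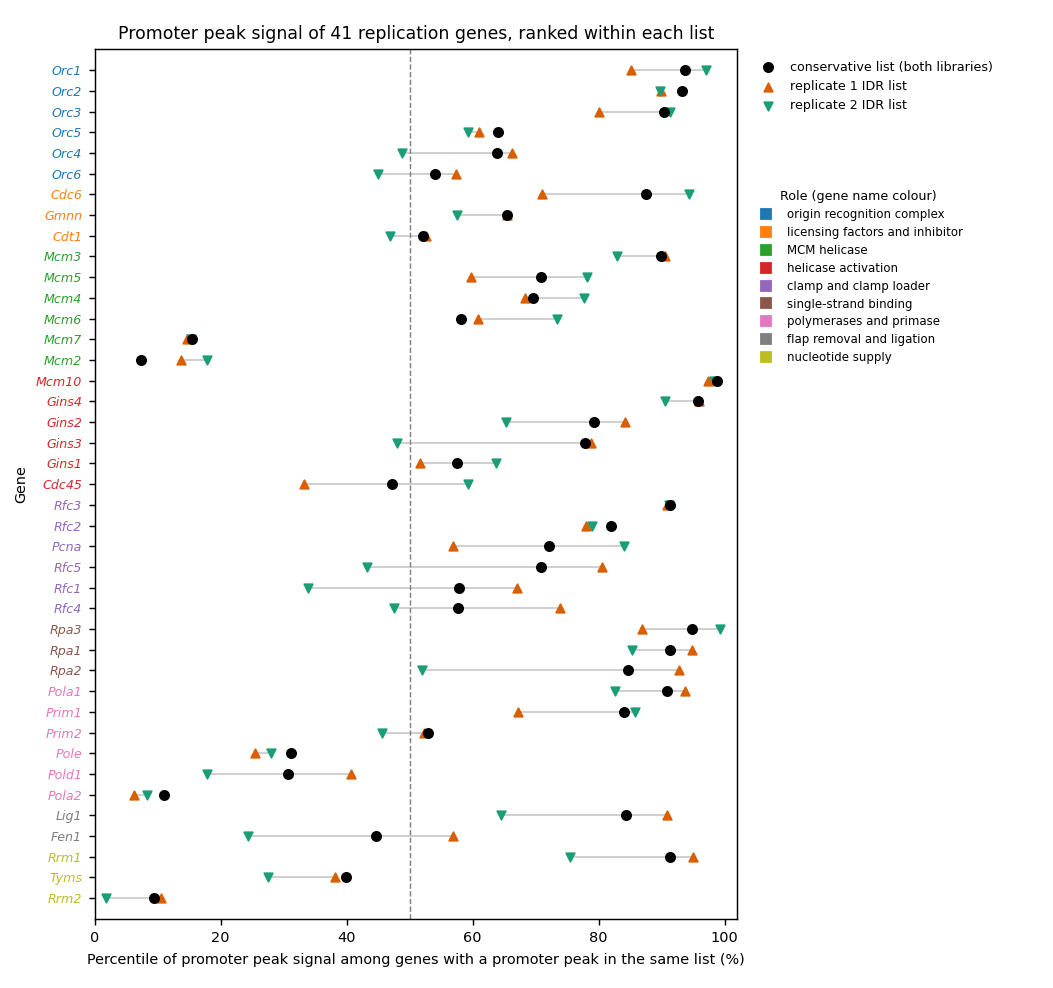
Percentile of the promoter peak signal (horizontal axis, %) for each of the 41 genes (rows, coloured by role) in the conservative list (circles), the replicate 1 IDR list (upward triangles) and the replicate 2 IDR list (downward triangles). Grey lines join the 2 replicates and the dashed line marks percentile 50. Across the 3 lists Mcm10 lies between percentiles 97.4 and 98.9, Pola2 between 6.25 and 11.0 and Rrm2 between 1.84 and 10.4.

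All 6 genes of the origin recognition complex, which binds origins, were above percentile 50 in the conservative list, with a median of 77.2. Orc1, which carries ATPase activity of the complex, had the highest signal of the 6 in the conservative list, at 14.5, with 14.1 in replicate 1 and 12.9 in replicate 2. Those values put Orc1 at percentiles 93.8, 85.2 and 97.0. In replicate 1 Orc2 was higher, at 14.8. Orc6, the smallest subunit, had the lowest signal of the 6 in all 3 lists, at 10.1, 11.4 and 7.71. Orc6 therefore lay near the middle of each list, at percentiles 54.0, 57.4 and 45.0. Orc2 and Orc3 were at 14.4 and 13.8 in the conservative list, close to Orc1, and Orc4 and Orc5, both at 10.9, were close to Orc6. In each replicate Orc1, Orc2 and Orc3 were higher than Orc4, Orc5 and Orc6.

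Among the licensing factors, Cdc6, an ATPase that helps load the helicase, had a signal of 13.3 in the conservative list, 12.6 in replicate 1 and 12.2 in replicate 2. Its percentile differed between the libraries, at 71.1 in replicate 1 and 94.3 in replicate 2. Cdt1, which brings the helicase to the origin, had 9.94, 11.0 and 7.83, near the middle of each list. Gmnn encodes geminin, the inhibitor of Cdt1, and its signals of 11.0, 12.1 and 8.48 lay between those of Cdc6 and Cdt1 in the conservative list and in both replicates.

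The 6 genes of the MCM ring were split between the upper and the lowest part of the list. Mcm3 had the highest signal, at 13.7 in the conservative list, 14.9 in replicate 1 and 10.5 in replicate 2, or percentiles 89.9, 90.6 and 82.9. Mcm2 had the lowest in the conservative list and in replicate 1, with 5.85, 7.45 and 6.06 in the 3 lists, or percentiles 7.40, 13.8 and 17.9. Mcm7 had 6.80, 7.55 and 5.87 and was the lowest in replicate 2, while Mcm4, Mcm5 and Mcm6 were between 10.4 and 11.5 in the conservative list. Mcm2 and Mcm7 were below the other 4 MCM genes in each replicate, although the 6 proteins form 1 ring.

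Of the genes that activate the helicase, Mcm10, which is needed for origins to unwind, had the highest promoter signal of all 41 genes in the conservative list, at 16.6. It had 16.7 in replicate 1 and 13.6 in replicate 2, or percentiles 98.9, 97.4 and 98.3 in the 3 lists. Cdc45, a part of the moving helicase, was the lowest of this role in the conservative list and in replicate 1, with 9.57, 9.37 and 8.58 in the 3 lists. In replicate 2 Gins3 was lower, at 7.88. The percentile of Cdc45 was 33.2 in replicate 1 and 59.2 in replicate 2. The 4 GINS genes, whose products form 1 complex, ran from 10.4 at Gins1 to 15.1 at Gins4 in the conservative list, and Gins4 was also the highest of the 4 in each replicate.

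Rfc3, a subunit of the loader that opens the sliding clamp, led the clamp and clamp loader genes with signals of 14.0 in the conservative list, 14.9 in replicate 1 and 11.6 in replicate 2. Rfc4, another loader subunit, was the lowest at 10.4, 12.9 and 7.86. In replicate 1, however, Pcna and Rfc1 were lower than Rfc4, and in replicate 2 Rfc1 and Rfc5 were, so which gene was lowest in this role differed between the lists. Pcna encodes the clamp itself and had 11.6, 11.3 and 10.6, at percentiles 72.1, 56.8 and 84.0. The remaining loader genes had 10.4 (Rfc1), 11.5 (Rfc5) and 12.6 (Rfc2) in the conservative list.

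The 3 genes of the single-strand binding protein RPA were at percentiles between 84.7 and 94.8 in the conservative list. Rpa3, the small subunit, had 14.8 there, 14.3 in replicate 1 and 14.6 in replicate 2. Its replicate 2 signal was the highest of the 41 genes in that library, at percentile 99.3. Rpa1, the large DNA-binding subunit, had 14.0, 15.8 and 10.8. Rpa2, the middle subunit, had 12.9, 15.3 and 8.12, and its percentile was 92.8 in replicate 1 and 52.0 in replicate 2.

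The polymerase and primase genes had a median percentile of 42.1, with members at both ends of the list. Pola1, the catalytic subunit of the polymerase that starts new strands, had 13.9 in the conservative list, 15.5 in replicate 1 and 10.5 in replicate 2. Pola2, the second subunit of the same polymerase, had 6.33, 6.37 and 5.32, or percentiles 11.0, 6.25 and 8.32. The 2 subunits of 1 enzyme were thus far apart in both libraries. Prim1, the catalytic primase subunit, had 12.8, and Prim2, the large primase subunit, had 9.99. Pold1 and Pole, the catalytic subunits of the lagging-strand and leading-strand polymerases, were at 8.17 and 8.19 in the conservative list, and both were below percentile 50 in each replicate.

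Lig1, the ligase that seals lagging-strand fragments, had 12.9 in the conservative list, 14.9 in replicate 1 and 8.95 in replicate 2. Fen1, the nuclease that trims their flaps, had 9.37, 11.3 and 6.47. Lig1 was above Fen1 in each library. Among the genes of nucleotide supply, Rrm1, the large subunit of ribonucleotide reductase, had 14.0, 15.8 and 9.81. Rrm2, the small subunit, whose protein is known to accumulate in S phase, had 6.13, 6.98 and 4.43. Rrm2 was at percentile 9.44 in the conservative list and had the lowest signal of the 41 genes in replicate 2, at percentile 1.84. Tyms, which makes thymidylate, had 8.97, 9.79 and 6.66, below percentile 50 in each list.

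In the conservative list the open regions were close to those of other promoters in size and place. The merged region around the highest peak had a median width of 899 bp in the conservative list, beside 876 bp for all genes with a promoter peak. In the IDR lists the medians were 893 and 807 bp in replicate 1, and 675 and 693 bp in replicate 2. In the pseudoreplicated lists they were 893 and 742 bp, and 675 and 619 bp. The order of the 2 sets thus turned only in the IDR list of replicate 2. The summit lay a median of 61 bp from the nearest start site, beside 64 bp for all genes, and upstream of it in 32 of 41 genes (78.0%), beside 73.7%. The narrowest region, at chr5:134582544-134582990, was that of Rfc2 with 447 bp, and the widest, at chr2:48948792-48950283, was that of Orc4 with 1492 bp. Mcm10, with the highest signal, had a region of only 591 bp at chr2:5012466-5013056, while Rrm2, with one of the lowest, had 1041 bp at chr12:24707935-24708975.

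**Figure D2:**
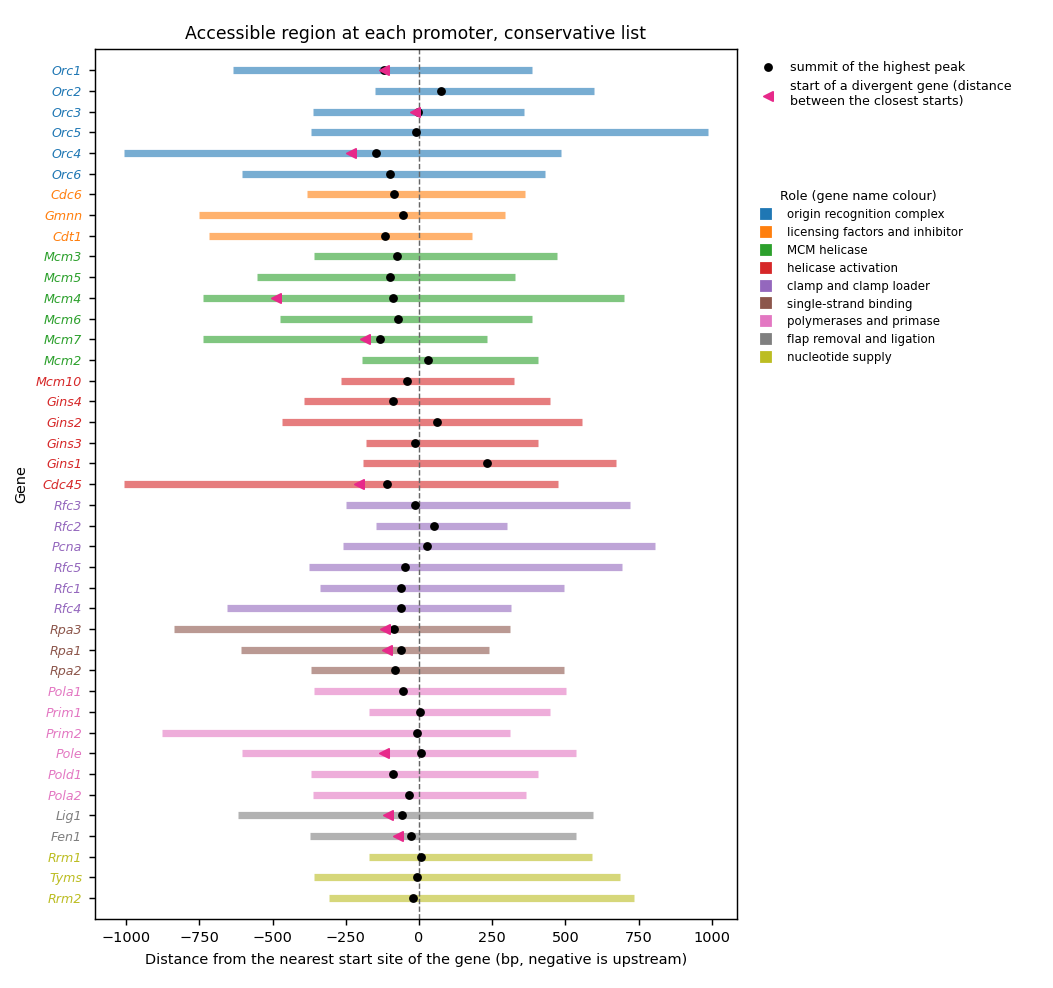
Accessible region of each gene in the conservative list (bars, coloured by role) against the distance from its nearest start site (horizontal axis, bp, negative upstream). Black points are summits, which lay upstream of the start in 32 of 41 genes, and pink arrowheads are the starts of divergent genes, found at 11 of them.

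The 2 libraries ranked these promoters in a similar order. Spearman's rho between their signals was 0.717 over the 41 genes, beside 0.712 over the 9706 genes with a promoter peak in both lists. These are correlations across genes of 2 libraries that share 1 donor identifier, and genes are not replicates. The position of the summit relative to its nearest start site differed between the 2 libraries by a median of 17 bp. The difference was at most 50 bp in 33 of 41 genes. At genes with several starts the nearest start can differ between the libraries. The median difference in percentile was 11.8 points, with 23 genes higher in replicate 1 and 18 higher in replicate 2. Differences above 30 points were seen at 5 genes, Gins3, Rfc1, Rfc5, Rpa2 and Fen1, each higher in replicate 1. Rpa2 had the widest difference, 40.8 points.

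Sequence words known for factors of cell cycle promoters were then counted in the same windows, on both strands. A match is a description of the letters, not a bound site. The E2F word was in 13 of 41 replication genes (31.7%) and in 346 of all 11338 genes with a promoter peak (3.05%). The 13 were Mcm2, Mcm4, Mcm5, Mcm6, Mcm7, Orc1, Orc3, Gmnn, Gins3, Rfc3, Pola1, Pole and Lig1, so 5 of the 6 MCM ring genes had it, and none of the 3 RPA genes or the 3 genes of nucleotide supply did. The shorter E2F words are the 4 words above without their leading T, and so are contained in them. They were in 20 replication genes (48.8%) and in 13.8% of all. Among the 20 were Rpa2, Rpa3 and Rrm1, of the 2 roles without a full word. An NF-Y word (ACCAAT or GCCAAT), the box bound by a factor common at cell cycle promoters, was in 21 (51.2%), beside 28.3%. An ETS word (CCGGAAG) was in 16 (39.0%), beside 18.0%, and the GC box of SP factors (GGGCGG) in 30 (73.2%), beside 61.2%.

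Other words were near their share in all promoters. The NRF1 word (GCGCNTGCG) was in 4 replication genes, beside 11.1% of all, and the palindromic E-box (CACGTG) also in 4, beside 8.56%. The cell cycle homology region (TTTGAA or TTCGAA), an element of genes expressed late in the cycle, was in 3 (Mcm2, Gins3 and Rrm1), beside 6.39%. The palindromic CRE (TGACGTCA) was in 2 (Mcm5 and Orc5), beside 3.68%, and the YY1 word (AAGATGGC) in 2 (Mcm10 and Rpa2), beside 4.19%. Such counts of 2 to 4 genes are too few to set apart from those shares.

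**Figure D3:**
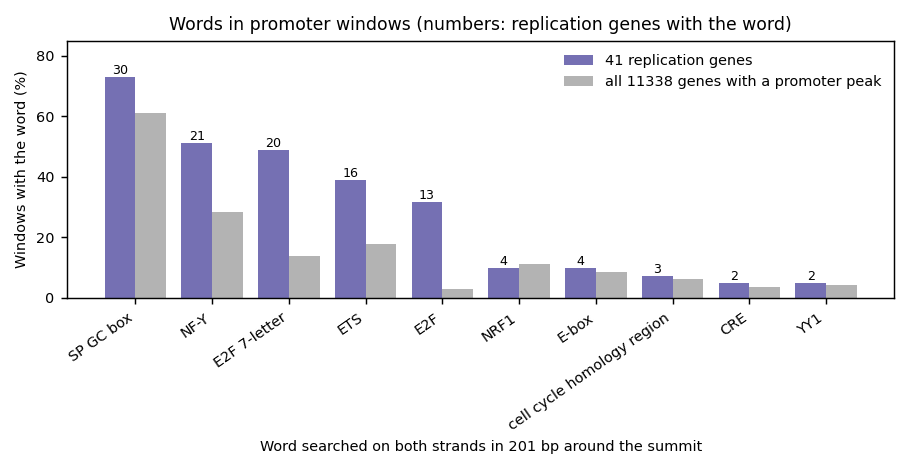
Share of promoter windows with each word (vertical axis, %) for the 41 replication genes (violet, with the number of genes above the bar) and for all 11338 genes with a promoter peak (grey). The E2F bars stand at 31.7% and 3.05%.

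The windows of the replication genes had a median GC content of 64.2%, the same as those of all genes. Their median ratio of observed to expected CpG was higher, 0.921 beside 0.807, and its part in the word counts was not tested. Among genes whose window had a GC content between 59.7% and 66.7%, the quartiles of the replication genes, 8 of 22 replication genes and 3.72% of 4462 genes had the E2F word. Around the summits called in each library alone, 12 genes had it in replicate 1 (3.08% of all) and 12 in replicate 2 (3.20% of all). Mcm2, Mcm4, Mcm5, Mcm6, Orc3, Gmnn, Gins3, Rfc3, Pole and Lig1 were in both sets. In windows centred 500 bp from the summit, only 1 gene had the word on the upstream side (1.60% of all) and 2 on the other (1.48%). In the RefSeq promoter table, which covers 250 bp before to 50 bp after a gene's start, 33 replication genes had an entry, and 13 of these (39.4%) held the word, beside 2.61% of all 27025 entries. Those 13 included Mcm3, Cdc6, Cdt1 and Pold1, which had none within 100 bp of the summit.

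Several genes held more than 1 E2F word. The 13 genes had 18 words, 11 of them upstream of the start site, between −226 and 90 bp from it, with a median of −34 bp. They lay a median of 66.5 bp from the summit, and 7 were within 50 bp of the start. Mcm2 and Mcm6 each held a pair of overlapping words on opposite strands, seen as the long runs of capitals in the stretches printed above, and Mcm6 held another word at −84 bp from its start. Rfc3 held 2 words on opposite strands 28 and 38 bp after its start. NF-Y words were in 8 of the 13 genes with an E2F word and in 13 of the 28 without. The median signal was 11.5 in the genes with an E2F word and 11.2 in those without. The lowest signal (Mcm2) belonged to a gene with it and the highest (Mcm10) to a gene without.

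**Figure D4:**
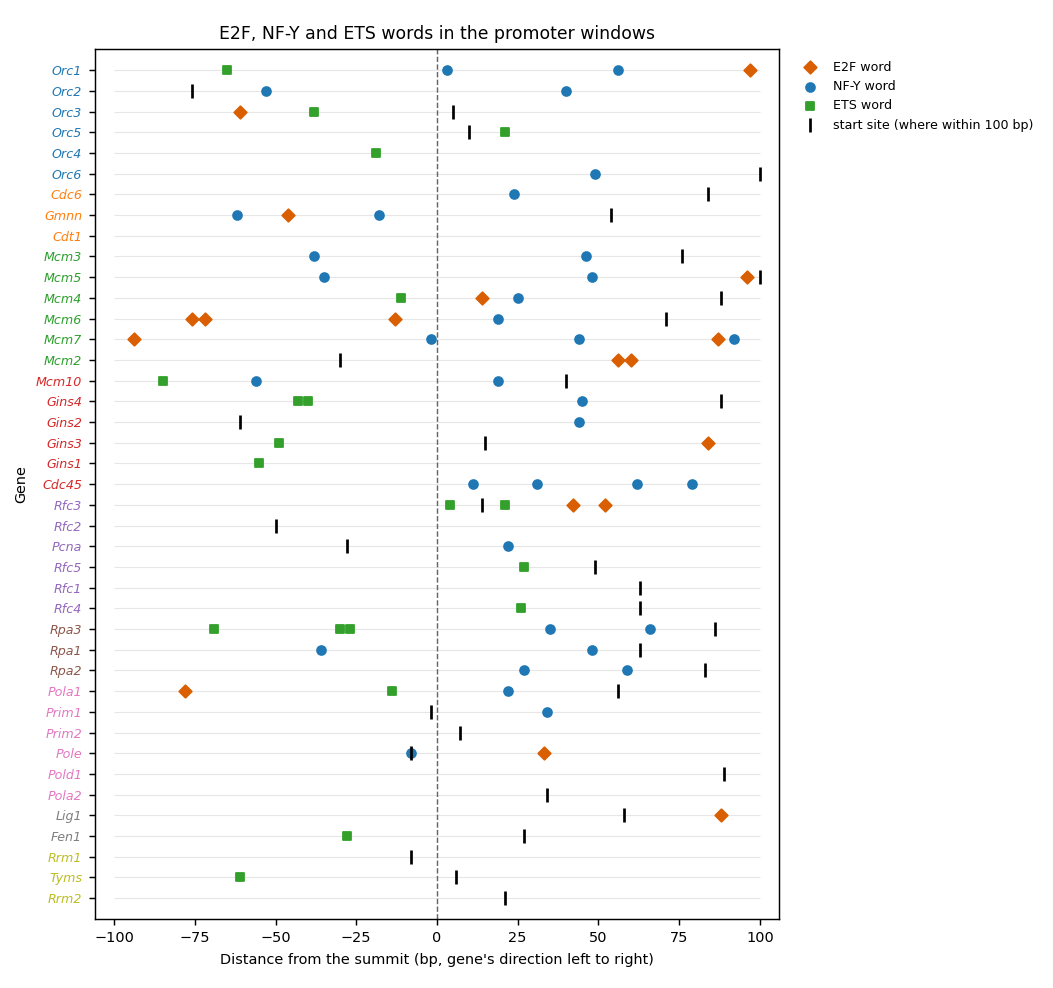
Position of E2F words (orange diamonds), NF-Y words (blue circles) and ETS words (green squares) relative to the summit (horizontal axis, bp, in the gene's direction) in each of the 41 windows, with start sites within 100 bp as black ticks. Mcm6 has 3 E2F words, and rows without symbols, such as Rrm2, hold none of these 3 kinds of word.

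The parts of 6 of these windows that lie outside annotated exons are shown whole to let the arrangement be read. Mcm3 and Mcm10 carry a pair of NF-Y words, and Mcm5, Mcm6 and Pola1 carry E2F and NF-Y words together. Rrm2, whose promoter signal was low in both libraries, carries neither of these searched words. The sequence is the GRCm38.p6 (mm10) genome of RefSeq, 5′ to 3′ on the gene's strand, with E2F, NF-Y and ETS words in capitals.
Mcm3, chr1:20820313-20820488, minus strand: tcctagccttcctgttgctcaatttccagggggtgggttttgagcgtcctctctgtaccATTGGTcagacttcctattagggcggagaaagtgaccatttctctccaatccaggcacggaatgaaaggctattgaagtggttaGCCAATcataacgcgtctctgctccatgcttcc
Mcm5, chr8:75109369-75109568, plus strand: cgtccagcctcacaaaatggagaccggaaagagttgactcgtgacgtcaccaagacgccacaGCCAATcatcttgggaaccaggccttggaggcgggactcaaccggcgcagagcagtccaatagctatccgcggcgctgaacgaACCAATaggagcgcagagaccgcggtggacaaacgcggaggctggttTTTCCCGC
Mcm6, chr1:128359665-128359835, minus strand: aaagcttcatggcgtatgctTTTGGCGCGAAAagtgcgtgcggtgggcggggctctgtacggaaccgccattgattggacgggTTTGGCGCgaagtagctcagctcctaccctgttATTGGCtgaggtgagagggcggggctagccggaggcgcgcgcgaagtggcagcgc
Mcm10, chr2:5012792-5012931, minus strand: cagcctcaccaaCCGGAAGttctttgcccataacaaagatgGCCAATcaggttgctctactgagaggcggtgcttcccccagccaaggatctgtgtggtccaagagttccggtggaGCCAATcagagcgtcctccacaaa
Pola1, chrX:93632156-93632311, minus strand: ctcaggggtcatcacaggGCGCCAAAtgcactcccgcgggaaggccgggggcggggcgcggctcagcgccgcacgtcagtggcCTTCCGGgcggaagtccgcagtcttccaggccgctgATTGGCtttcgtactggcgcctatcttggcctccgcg
Rrm2, chr12:24708120-24708240, plus strand: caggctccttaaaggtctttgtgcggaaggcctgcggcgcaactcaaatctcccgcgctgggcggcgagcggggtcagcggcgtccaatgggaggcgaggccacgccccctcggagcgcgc
The NF-Y words of Mcm3 lay at −38 and 46 bp from its summit, and those of Mcm10 at −56 and 19 bp. In Pola1 an E2F word at −78 bp and an ETS word at −14 bp from the summit were followed by an NF-Y word at 22 bp. The Rrm2 window holds a GC box but none of the E2F, NF-Y or ETS words searched, which says nothing of the factors themselves. The printed sequences of Rrm2, Mcm3, Mcm5 and Mcm6 also hold CCAAT after a T, on either strand. The NF-Y words searched do not take in that form, so it is neither counted nor in capitals.

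A divergent partner, a protein-coding gene on the other strand that starts within 1 kb upstream, was present at 11 of 41 replication genes (26.8%). The share was 9.87% of all protein-coding genes and 17.4% of those with a promoter peak. With the 5′-most start of each gene only, the counts fell to 6 of 41 and 7.04% of all genes. The closest pair was Orc3 with Rars2, which encodes a mitochondrial arginyl-tRNA synthetase, 13 bp apart, and the most distant was Mcm4 with Prkdc, the DNA-dependent protein kinase gene, 489 bp apart. Between these lay Fen1 with Tmem258 (71 bp), Lig1 with Zswim9 (105 bp), Rpa1 with Smyd4 (109 bp), Rpa3 with Umad1 (115 bp), Orc1 with Prpf38a (118 bp), Pole with Pxmp2 (120 bp), Mcm7 with Ap4m1 (184 bp), Cdc45 with Ufd1 (206 bp) and Orc4 with Mbd5 (232 bp). In all 11 pairs the partner's highest promoter peak had the same summit as the replication gene's, so accessibility cannot be assigned to 1 of the 2 genes. The regions of the 11 had a median width of 1143 bp, beside 864 bp in the other 30, while the median signals were 11.4 and 11.5.

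Distal regions are those whose summit lay over 1 kb from every protein-coding start, where enhancers are found among other elements. The conservative list held 47 of them within 50 kb of a replication gene. At least 1 was near 25 of the 41 (61.0%), a share close to the 61.9% of all genes. The shares were 63.4% and 64.3% in the replicate 1 IDR list, and 43.9% and 49.4% in that of replicate 2. In the pseudoreplicated lists they were 90.2% and 81.6% for replicate 1, and 78.0% and 76.8% for replicate 2. In the conservative list the mean was 1.15 per gene, beside 1.45 for all genes. In replicate 1 the 41 genes had 69 such regions, or 1.68 per gene beside 1.61, and in replicate 2 they had 28, or 0.683 beside 0.907, so the order of the 2 means turned between the libraries. The 47 regions had a median signal of 7.83 and a median width of 468 bp, beside 7.96 and 508 bp for all 20306 distal regions. Only 15 of them had a replication gene as the nearest gene, and 23 lay inside another gene. Of the 47, 39 overlapped a region of the replicate 1 IDR list, 23 of the replicate 2 list and 22 of both.

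**Figure D5:**
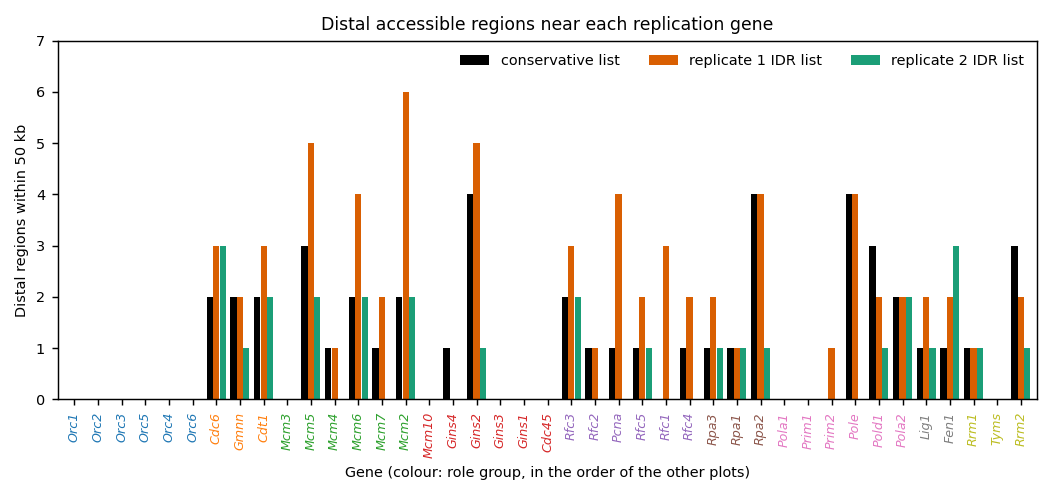
Number of distal regions within 50 kb (vertical axis) of each of the 41 genes (horizontal axis, coloured by role) in the conservative list (black), the replicate 1 IDR list (orange) and the replicate 2 IDR list (green). The 6 genes of the origin recognition complex have none in these 3 lists, and Mcm2 has 6 in replicate 1.

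None of the 6 origin recognition genes had a distal region within 50 kb in the conservative list or in either replicate's IDR list, while the longer pseudoreplicated lists gave them 6 in replicate 1 and 0 in replicate 2. The median number of other protein-coding genes within 50 kb was 1 for these 6 and 2 for all genes. Of the 16 genes with no distal region in the conservative list, Orc1, Orc2 and Pola1 had none in any of the 5 lists, as was the case for 16.6% of all genes. The MCM ring genes had 9 regions in the conservative list, 18 in replicate 1 and 6 in replicate 2. The highest number at any single gene in the conservative list was 4, at Gins2, Rpa2 and Pole.

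The distal region of highest signal lay at chr5:151686438-151687378, 35.8 kb upstream of Rfc3, in no annotated protein-coding gene. Its signal of 14.6 was above that of the Rfc3 promoter peak, 14.0, and stood at percentile 98.4 among distal regions. Next came a region with 14.4 at chr13:24791342-24791770, 29.6 kb upstream of Gmnn, whose nearest gene was BC005537. A region at chr4:132747347-132748289 inside Smpdl3b, 20.5 kb upstream of Rpa2, had 12.7, and 1 at chr7:102417402-102417812 inside Stim1, 24.1 kb upstream of Rrm1, had 12.3. The fifth, at chr1:128314690-128315151 inside Lct, lay 44.8 kb downstream of the Mcm6 start and had 11.8. All 5 overlapped a region in the IDR list of each replicate. Proximity does not show which gene a region acts on, and 4 of the 5 were nearer to the start of another gene.

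Rrm2, whose promoter signal was low, had 3 distal regions, each with Rrm2 as the nearest gene, at 11.0 kb upstream and at 8.04 and 49.5 kb downstream of its start. Their signals of 10.9, 8.12 and 8.35 were above the 6.13 of the promoter peak in the same list. The first overlapped a region of the replicate 1 IDR list only, the second a region of neither and the third a region of both.

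Words of factors known from blood-forming cells were counted in the same way in the distal windows. The RUNX word (TGTGGT) was in 11 of 47 windows (23.4%), beside 30.4% of 20306, the GATA word (AGATAA) in 2 (4.26%), beside 8.71%, and the PU.1 word (GAGGAAGT), which shares letters with other ETS words, in 5 (10.6%), beside 10.4%. The ETS word was in 2 (4.26%), beside 3.15%, and the E2F word in 0, beside 0.744%.

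A set of 43 other genes held further replication genes and also regulators, among them Cdk2, Ccne1, Ccne2 and the E2F factor genes. Of these 43, 41 had a promoter peak in the conservative list (51.9% of all genes). In replicate 1 the number was 40 (52.2% of all genes) and in replicate 2 it was 37 (45.8%). In the conservative list the median percentile of those with a peak was 53.7, below the 70.9 of the 41 genes described above. The 2 sets thus differ in the kind of gene they hold. Ticrr, which encodes treslin, a factor needed to fire origins, had the highest signal at 17.4, above Mcm10. Tk1, the thymidine kinase of the cytosol, and E2f2, an E2F factor, had no promoter peak in the conservative list or in either IDR list. In the pseudoreplicated lists Tk1 had 4.95 in replicate 1 and 3.41 in replicate 2, and E2f2 had 4.16 in replicate 1 and no peak in replicate 2. The E2F word was in 11 of the 41 with a peak (26.8%), among them Mcm8, a relative of the MCM ring genes, the checkpoint gene Clspn and E2f1 itself.

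The conservative list held 53241 peaks in 31532 merged regions, the IDR list of replicate 1 held 34588 regions and that of replicate 2 held 22434. Of all genes, 51.9% had a promoter peak in the conservative list, 52.2% in the replicate 1 IDR list and 45.8% in that of replicate 2. Of 12 stem cell marker genes, 7, 5 and 6 had one in these lists, near those shares. In the pseudoreplicated lists 11 had one in replicate 1 and 9 in replicate 2, beside 63.5% and 62.0% of all genes. Ly6a, the gene of the Sca-1 antigen, had none in any list of a single replicate. Of 12 neutrophil and monocyte markers, 3 had a promoter peak in the conservative list, 9 in the replicate 1 IDR list and 1 in that of replicate 2. In the pseudoreplicated lists 10 and 5 of them had one. Elane and Mpo had none in the lists of single replicates. In the conservative list and the IDR list of each replicate, 1 or 2 of 6 erythroid markers had a promoter peak. The same lists held 1 of 5 markers for B cells and for T cells. The part of such cells in the values of the replication genes was not tested.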

How the data were processed

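ATAC-seq was done on 2 libraries of mouse haematopoietic stem cells, and the build of the peak lists is mm10, per the labels. Aligner, peak caller and any shift of reads for the transposase are not given in the sources. The authors deposited a signal for every peak, whose control and scaling they do not state. Both libraries form 1 group, so no test was made and values are descriptions. The 41 genes, the other pathway genes, the words and the markers were chosen with earlier results of these data known.

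From the lists, overlapping peaks were merged into regions that keep the summit of highest signal, and summits were placed against the starts of all protein-coding transcripts of GENCODE M21 (GRCm38.p6, 21 chromosomes). The conservative list of both libraries was the main one. Sequences came from RefSeq, whose promoter table matched 33 of 41 genes. The genes described in full were the highest and lowest of each of 9 role groups, the genes with most distal regions and the 5 highest distal regions. Others were named after their values were seen. Ranked lists were not used. Python 3.11.15 with pandas 2.3.3, numpy 2.4.6 and pysam 0.24.0 was used, and the counting was tested on simulated peaks. Alternatives were the other lists, each library alone, other windows, distances and start sites. Counts carry no interval because the depth is unknown.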

Additional observations from a re-analysis of the deposited data

How the results depend on the processing

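All 41 genes kept a promoter peak in every list, all made from the same 2 libraries. They also kept it with starts taken within 500 bp (50.2% of all genes) or 2500 bp (54.7%). With the 5′-most start of each gene only, 40 had a promoter peak (48.4% of all genes). The gene without was Lig1, whose summit lay 1455 bp from that start. With peaks above the list's median signal of 6.65 only, 38 had a promoter peak (44.7% of all genes), without Mcm2, Pola2 and Rrm2. The median percentile was 63.6 to 67.2 with 1 library left out, 76.8 in the replicated list and 77.2 in the pseudoreplicated list of both, which rank against more genes. The median width was 675 to 893 bp with 1 library left out, and 675 bp in the pseudoreplicated list of replicate 2. Distal regions numbered 28 to 69 with 1 library left out, 86 in the IDR list of both and 153 in the replicated list. They numbered 203 in the pseudoreplicated list of both, 193 in that of replicate 1 and 115 in that of replicate 2. Per gene, the means beside all genes were 2.10 and 2.14 in the IDR list of both, and 3.73 and 3.97 in the replicated list. In the pseudoreplicated lists they were 4.95 and 4.61 for both, 4.71 and 4.13 for replicate 1, and 2.80 and 2.88 for replicate 2. Distal regions of the conservative list near the 41 genes numbered 19 within 20 kb and 101 within 100 kb. All genes had means of 0.615 and 2.75 per gene at these distances. Within 50 kb, the regions of the 41 numbered 15 where the gene had the nearest start and 18 above the median signal. Each of these settings takes in fewer or more regions by its construction. Genes with an E2F word numbered 5 within 50 bp of the summit (1.23% of all genes) and 18 within 200 bp (5.78%). They numbered 20 with the shorter words (13.8%), 3 in the flanking windows (3.06%) and 8 among the 22 of like GC content (3.72%). That last alternative was added after the data were seen, as were the RefSeq table and 1 window per summit. The RefSeq table and 1 window per summit each gave 13, beside 2.61% of all entries and 2.91% of all windows. Divergent partners were found at 6 genes with the 5′-most start only (7.04% of all genes). No paired analysis was possible because both libraries belong to 1 group.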
